A study of Sus scrofa with 12 samples.

Results

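The expression of 7 interferon-stimulated genes was followed in left ventricular muscle of pigs: USP18, IFIT3, MX2, STAT2, CMPK2, DHX58 and GBP2. They were taken by gene symbol from the platform annotation of the array, which lists 1 probe set for each of the 7 genes, so that 7 of 12361 named genes on the array are described. The 7 genes were chosen with earlier results of these data known. Paced pigs (EXP) had a complete atrioventricular block made with an ablation catheter and a pacemaker in the VDD setting, in which sensed atrial beats trigger ventricular pacing. Control pigs (CTL) belonged to the Sham group. Per the labels the ventricular lead was fixed to the right ventricular septum and the atrial lead to the right atrial appendage in all pigs, so the control animals share the leads. All animals were females labelled as 13 months old, and tissue was taken after 6 months from the left ventricular free wall (FW) and the septum (S) at the level of the papillary muscle. The 12 arrays formed 4 groups of 3: FW EXP, FW CTL, S EXP and S CTL. The series enrolled 12 pigs, 6 per treatment. Which arrays share an animal is not labelled. The p-values therefore rest on the scatter among arrays, part of which may be technical.

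Interferons are cytokines that cells release on sensing foreign or misplaced nucleic acid. Type I interferons bind a receptor on the cell surface, the kinases JAK1 and TYK2 are activated, and a complex that holds STAT2 and IRF9 enters the nucleus and switches on interferon-stimulated genes. Interferon gamma acts through a receptor of its own. In the heart, cardiomyocytes, endothelial cells, fibroblasts and resident macrophages can all carry this response, which is best known from viral myocarditis and from injured muscle. The roles given below are known mainly from human and mouse. STAT2 is the transducer among the 7 genes. USP18 is the brake: it removes the ubiquitin-like protein ISG15 from its targets and blocks signalling at the type I receptor. DHX58 encodes LGP2, an RNA helicase of the RIG-I-like receptor family. IFIT3, MX2, CMPK2 and GBP2 are effectors: a partner of RNA-binding IFIT1, a dynamin-like antiviral GTPase, a mitochondrial nucleotide kinase and a guanylate-binding GTPase.

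Signals are deposited log2 values from RMA, which corrects background, equalises the distributions of the arrays and summarises each probe set. Array medians ranged from 4.31 to 4.45. Free wall EXP array 2 stood apart from the rest, with a first principal component score of -45.3 against -19.2 to 22.3 elsewhere. Control array 1 of each region formed a pair on the second component, scoring 27.2 for FW and 24.3 for S against -16.3 to 7.76 elsewhere. Cardiomyocyte genes were among the brightest on the array, with MYH7 at a mean of 12.52 and MYL2 at 12.45. Of the markers of other cells, DCN of fibroblasts averaged 10.79, PECAM1 of endothelium 7.59 and C1QB of macrophages 6.89.

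All 7 genes passed the filter on low signal, which left out the 25% of probe sets with the lowest mean over the 12 arrays and kept 20668. MX2 was the brightest, at a mean of 6.18 and the 78.9th percentile of all probe sets, followed by STAT2 at 5.51 (70.2nd). GBP2 (4.68), IFIT3 (4.48) and CMPK2 (4.42) lay near the middle, and DHX58 (4.0, 43rd percentile) and USP18 (3.93, 41.8th percentile) below it. Signals of different probe sets depend on their probes, so these means place each gene within the array and do not compare transcript amounts. The spread between arrays of a group differed widely among the 7 genes. The within-group standard deviation of MX2 was 0.58, which exceeded that of 99% of the 1000 probe sets nearest to it in mean signal. IFIT3 (0.44) and USP18 (0.41) stood at the 92.8th and 92.1st percentiles of their own nearest 1000, and CMPK2 (0.28) at the 71.2nd. DHX58 (0.25) and GBP2 (0.19) were ordinary, at the 55.4th and 34.4th percentiles, and STAT2 was steady (0.11, 10.4th percentile).

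**Figure D1:**
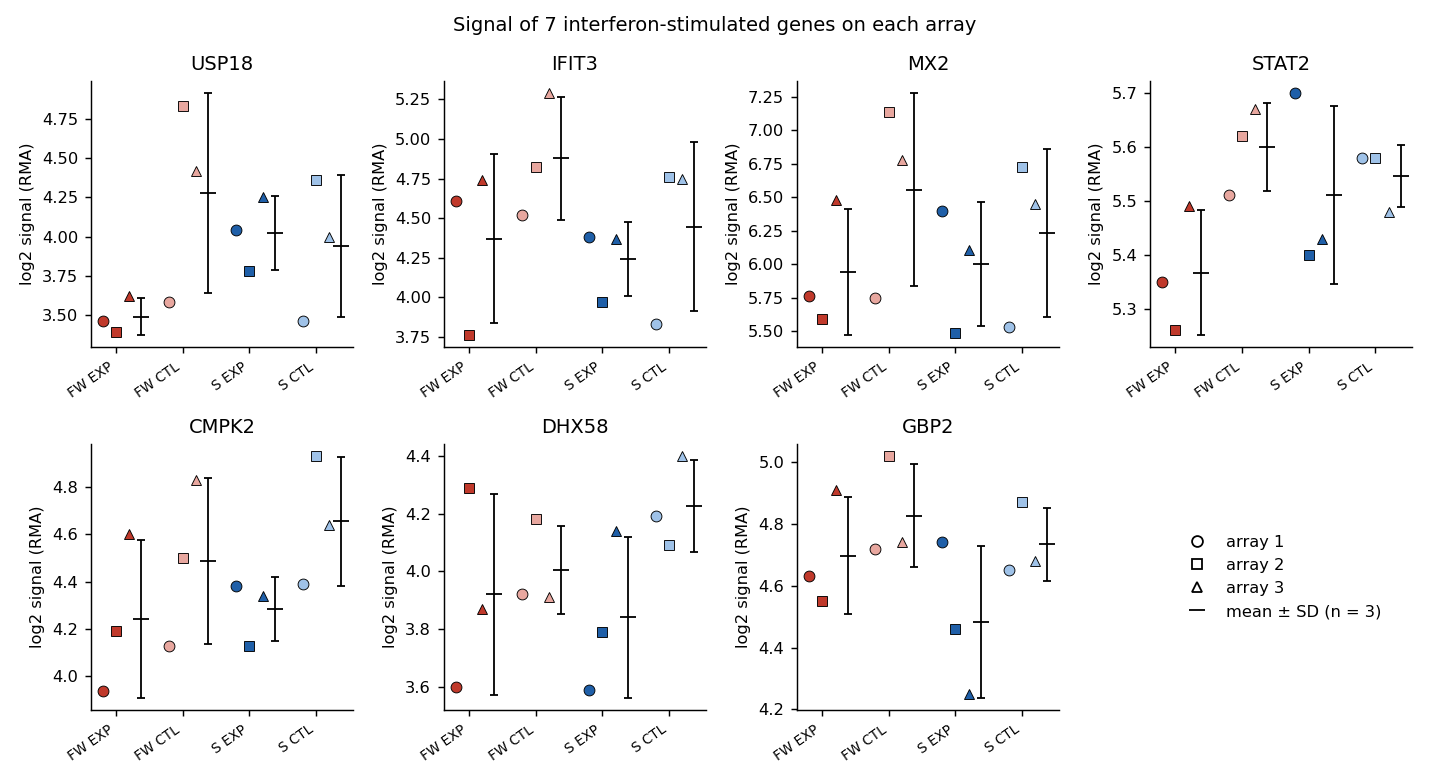
Log2 signal (RMA) of each of the 7 genes on the 12 arrays, by group, with the marker shape giving the array number and the bar giving mean ± SD (n = 3). Arrays of a group are widely spread for MX2, USP18 and IFIT3, and the axis of STAT2 covers a range of only 0.44.

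STAT2, the transducer, had signals of 5.35, 5.26 and 5.49 on FW EXP arrays 1, 2 and 3, against 5.51, 5.62 and 5.67 on FW CTL arrays. Every paced free wall array lay below every control one, by a gap of 0.02. In the septum it had 5.70, 5.40 and 5.43 on S EXP arrays and 5.58, 5.58 and 5.48 on S CTL arrays, and these groups overlapped, with S EXP array 1 holding the highest STAT2 signal of the series.

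USP18, the brake on the receptor, had 3.46, 3.39 and 3.62 on FW EXP arrays, against 3.58, 4.83 and 4.42 on FW CTL arrays. The paced free wall arrays were all low and close together, while control array 1 sat with them and control arrays 2 and 3 were high. Those low signals lay not far above the filter at a mean of 3. Whether low signal narrowed their spread or the size of the difference was not tested. On S EXP arrays USP18 had 4.04, 3.78 and 4.25, and on S CTL arrays 3.46, 4.36 and 4.0. Here the paced arrays lay inside the range of the controls.

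MX2, the dynamin-like GTPase, had 5.76, 5.59 and 6.48 on FW EXP arrays, against 5.75, 7.14 and 6.78 on FW CTL arrays. Its signals in the septum were 6.40, 5.49 and 6.11 on S EXP arrays and 5.53, 6.73 and 6.45 on S CTL arrays. In both regions control array 1 was low and control arrays 2 and 3 were high, as for USP18, and both regions had paced and control arrays that overlapped. IFIT3, the partner of IFIT1, had 4.61, 3.76 and 4.74 on FW EXP arrays, against 4.52, 4.82 and 5.29 on FW CTL arrays. It had 4.38, 3.97 and 4.37 on S EXP arrays, against 3.83, 4.76 and 4.75 on S CTL arrays. FW EXP array 2 and S CTL array 1 held its lowest signals, and the groups overlapped in each region.

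CMPK2, the mitochondrial nucleotide kinase, had 3.94, 4.19 and 4.60 on FW EXP arrays, against 4.13, 4.5 and 4.83 on FW CTL arrays. In the septum it had 4.38, 4.13 and 4.34 on S EXP arrays, against 4.39, 4.93 and 4.64 on S CTL arrays. The septal groups did not overlap, but the gap between them was 0.01. GBP2, the guanylate-binding GTPase, had 4.63, 4.55 and 4.91 on FW EXP arrays and 4.72, 5.02 and 4.74 on FW CTL arrays. It had 4.74, 4.46 and 4.25 on S EXP arrays and 4.65, 4.87 and 4.68 on S CTL arrays, with S EXP array 3 the lowest of all 12. DHX58, the RNA helicase, had 3.60, 4.29 and 3.87 on FW EXP arrays and 3.92, 4.18 and 3.91 on FW CTL arrays. On S EXP arrays it had 3.59, 3.79 and 4.14, and on S CTL arrays 4.19, 4.09 and 4.40. FW EXP array 2, the array that stood apart, was its second highest and the lowest array for USP18, IFIT3 and STAT2.

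The first comparison set paced against control free wall, the region that carried no lead. The difference (EXP minus CTL) was below 0 for 7 of 7 genes, where 49.3% of all tested probe sets were below 0, and the median over the 7 was -0.24 on the log2 scale against 0 over all probe sets. Because the genes were chosen with earlier results known and most of them varied together, the 7 signs are not 7 separate results, here and in the comparisons below. USP18 had the largest difference, at 3.49 ± 0.12 in FW EXP and 4.28 ± 0.64 in FW CTL (SD, n = 3 each), or -0.79 (SE 0.29, 95% confidence interval -1.42 to -0.15), which is 1.73-fold lower in FW EXP. MX2 averaged 5.94 ± 0.47 in FW EXP and 6.56 ± 0.72 in FW CTL, a difference of -0.61 (SE 0.40, interval -1.49 to 0.27). IFIT3 averaged 4.37 ± 0.53 in FW EXP and 4.88 ± 0.39 in FW CTL, a difference of -0.51 (SE 0.31, interval -1.18 to 0.17). None of the 7 genes was called (0 at a limma adjusted p under 0.05, the smallest adjusted p of all 7 being 0.998), where 0.00484% of all tested probe sets were called. At an unadjusted p under 0.05 there was 1 gene, USP18, along with 4.56% of all probe sets.

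STAT2 averaged 5.37 ± 0.12 in FW EXP and 5.6 ± 0.08 in FW CTL, a difference of -0.23 (SE 0.12, interval -0.49 to 0.02). It was the 1 gene of 7 whose EXP arrays all lay below its CTL arrays, where 4.52% of all probe sets did so. CMPK2 differed by -0.24 (SE 0.21), GBP2 by -0.13 (SE 0.15) and DHX58 by -0.08 (SE 0.19). For 1 of the 7 genes, STAT2, the difference between groups was wider than the ranges within both FW EXP and FW CTL, and only narrowly, at 0.2333 against 0.23 and 0.16. For MX2 the range within FW CTL was 1.39 and for USP18 it was 1.25, both wider than the differences of -0.61 and -0.79. Markers of macrophages and monocytes were also lower in the free wall, with mean deviations of -0.28 to -0.01 in FW EXP and 0.09 to 0.23 in FW CTL. Fibroblast markers were above 0 there for 7 of 9 genes, and vascular endothelial markers were below 0 for 5 of 8. The part of any cell type in these differences was not tested. The sizes depended on single arrays. Without FW CTL array 2 USP18 differed by -0.51 and MX2 by -0.32, without FW CTL array 1 they differed by -1.14 and -1.02, without FW EXP array 2 IFIT3 differed by -0.20, and without FW CTL array 3 CMPK2 differed by -0.07.

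The second comparison was the same in the septum, where the lead was fixed. The difference was below 0 for 6 of 7 genes, where 50.2% of all probe sets were below 0, with a median of -0.24 over the 7 against -0.003 over all probe sets. DHX58 had the largest difference, at 3.84 ± 0.28 in S EXP and 4.23 ± 0.16 in S CTL (SD, n = 3 each), or -0.39 (SE 0.19, interval -0.80 to 0.03). CMPK2 averaged 4.28 ± 0.13 in S EXP and 4.65 ± 0.27 in S CTL, a difference of -0.37 (SE 0.21, interval -0.83 to 0.09). GBP2 averaged 4.48 ± 0.25 in S EXP and 4.73 ± 0.12 in S CTL, a difference of -0.25 (SE 0.15). MX2 differed by -0.24 (SE 0.40), IFIT3 by -0.21 (SE 0.31) and STAT2 by -0.04 (SE 0.12). USP18 averaged 4.02 ± 0.24 in S EXP and 3.94 ± 0.45 in S CTL, a difference of 0.08 (SE 0.29, interval -0.55 to 0.72).

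None of the 7 was called in the septum (0 by limma, with adjusted p-values from 0.992 to 0.997), where 0.00968% of all probe sets were called, and 0 reached an unadjusted p under 0.05, where 4.65% did. All EXP arrays lay below all CTL arrays for 1 gene, CMPK2, where 4.78% of all probe sets did so. Without S EXP array 2 the count below 0 was 4 of 7, without S CTL array 1 it was 7 of 7, and without S CTL array 2 the median of the 7 was -0.05.

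**Figure D2:**
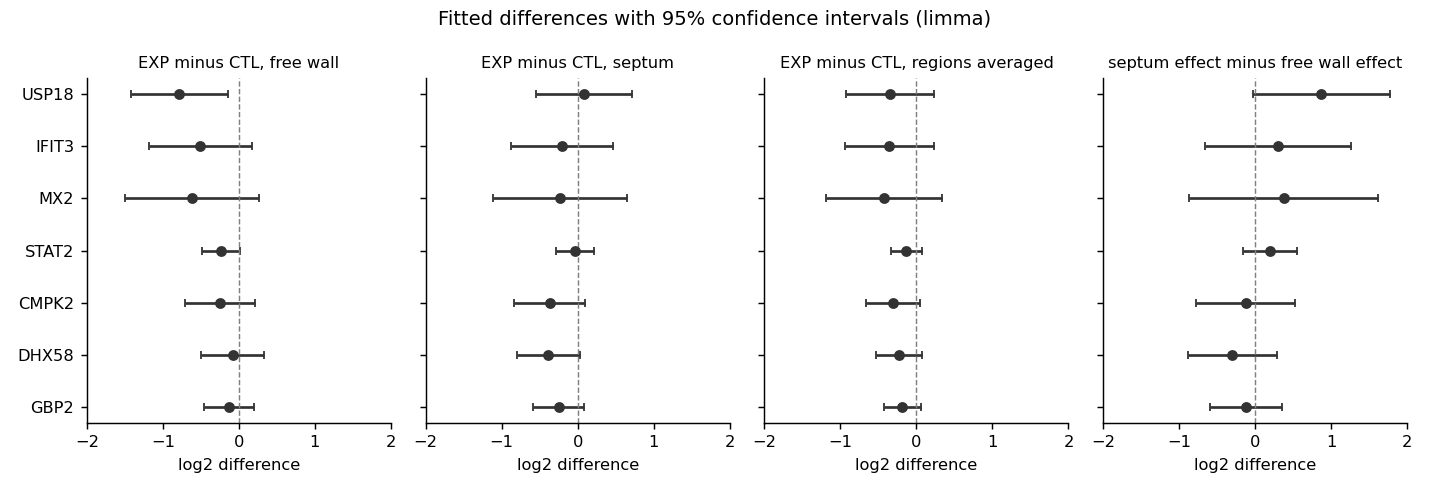
Log2 difference of each of the 7 genes with its 95% confidence interval (limma) for EXP minus CTL in the free wall, in the septum and with the regions averaged, and for the septal effect minus the free wall effect. Every interval includes 0 except that of USP18 in the free wall, which runs from -1.42 to -0.15 before adjustment over all probe sets.

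Whether the regions differed in their pacing effect was tested directly. Pacing effect means EXP minus CTL, in which ablation, atrioventricular block and pacing cannot be told apart. USP18 had the largest difference of effects, at 0.87 (septum minus free wall, SE 0.41, interval -0.03 to 1.77, limma adjusted p = 0.999). MX2 stood at 0.38 (SE 0.57), IFIT3 at 0.30 (SE 0.44) and STAT2 at 0.20 (SE 0.16), while DHX58 stood at -0.30 (SE 0.27), CMPK2 at -0.13 (SE 0.30) and GBP2 at -0.12 (SE 0.22). Without S CTL array 1 MX2 stood at 0.02 and the median of the 7 at -0.01, against 0.20 with all arrays, and without FW CTL array 1 MX2 stood at 0.78. With all arrays the effects were more negative in the free wall for 4 genes and in the septum for 3, where 51.3% of all probe sets were above 0. No gene was called (0 of 7, limma adjusted p 0.999 for each), and 0% of all probe sets were called. At an unadjusted p under 0.05 there were 0 of 7, against 2.75% of all probe sets. The widest interval, for MX2, ran from -0.87 to 1.62, so equal effects are not shown either. With 3 EXP and 3 CTL values made by averaging the 2 regions within each treatment and array number, all 7 genes were below 0, where 50.6% of all probe sets were. MX2 differed by -0.43 (SE 0.33), IFIT3 by -0.36 (SE 0.25), USP18 by -0.35 (SE 0.25) and CMPK2 by -0.31 (SE 0.15). DHX58 differed by -0.23 (SE 0.13), GBP2 by -0.19 (SE 0.11) and STAT2 by -0.13 (SE 0.09). Single values moved these sizes: without CTL value 1 and without CTL value 2, MX2 differed by -0.80 and -0.16 and USP18 by -0.65 and -0.11. IFIT3 differed by -0.60 without CTL value 1 and by -0.14 without EXP value 2, CMPK2 by -0.46 without CTL value 1, DHX58 by -0.09 without EXP value 1, STAT2 by -0.08 without EXP value 2, and GBP2 by -0.11 without CTL value 2. None was called (0 of 7, limma adjusted p from 0.919 to 0.976), where 0.00484% of all probe sets were called. All EXP values lay below all CTL values for 2 genes, STAT2 and DHX58, where 5.49% of all probe sets did so. That count depends on which arrays are averaged together, and same-numbered arrays are not labelled as sharing an animal. At an unadjusted p under 0.05 there were 0 of 7, against 5.55% of all probe sets.

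The remaining comparisons set septum against free wall within a treatment. In paced pigs USP18 was higher in septum on every array, at 4.02 ± 0.24 in S EXP against 3.49 ± 0.12 in FW EXP, with a gap of 0.16 between the groups (difference 0.53, SE 0.29, interval -0.10 to 1.17, limma adjusted p = 0.805). It was the 1 gene of 7 with every S EXP array above every FW EXP array, where 6.44% of all probe sets were, and none was called (0 of 7 and 0% of all probe sets). Of the 7 genes 3 were below 0, where 47.8% of all probe sets were, and 0 reached an unadjusted p under 0.05, where 6.73% did. The other differences in paced pigs lay between -0.21 for GBP2 and 0.14 for STAT2. In control pigs they lay between -0.43 for IFIT3 (SE 0.31) and 0.22 for DHX58 (SE 0.19), with USP18 at -0.34 (SE 0.29), all overlapping and with an adjusted p of 0.997 (limma) for each gene, where 13.1% of all probe sets did not overlap. Of the 7 genes 5 were below 0, where 46.9% of all probe sets were. Here too 0 of 7 genes and 0% of all probe sets were called, and 0 of 7 reached an unadjusted p under 0.05, where 3.67% did. Ordered by group mean, USP18 ran from FW CTL (4.28) through S EXP (4.02) and S CTL (3.94) to FW EXP (3.49). MX2 ran from FW CTL (6.56) through S CTL (6.24) and S EXP (6.00) to FW EXP (5.94), IFIT3 from FW CTL (4.88) through S CTL (4.45) and FW EXP (4.37) to S EXP (4.24), and CMPK2 from S CTL (4.65) through FW CTL (4.49) and S EXP (4.28) to FW EXP (4.24). STAT2 ran from FW CTL (5.6) through S CTL (5.55) and S EXP (5.51) to FW EXP (5.37), GBP2 from FW CTL (4.83) through S CTL (4.73) and FW EXP (4.70) to S EXP (4.48), and DHX58 from S CTL (4.23) through FW CTL (4.0) and FW EXP (3.92) to S EXP (3.84). Neighbours in each of these orders had overlapping arrays.

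Most of the 7 genes were high and low on the same arrays. Over the 12 arrays the Pearson correlation was above 0 for all 15 pairs that leave out DHX58, from 0.33 (USP18 with GBP2) to 0.85 (USP18 with MX2), with a median of 0.61. Deviations from the group means gave these pairs values from 0.31 (USP18 with STAT2) to 0.91 (USP18 with MX2). MX2 with CMPK2 stood at 0.82 and IFIT3 with GBP2 at 0.36, so how closely pairs varied together within groups differed widely. The 6 correlations of DHX58 lay between -0.16 (with STAT2) and 0.35 (with CMPK2). They rested in part on FW EXP array 2: without it all 6 were above 0, from 0.04 (with GBP2) to 0.48 (with CMPK2), and that of USP18 with GBP2 was 0.28. With all 12 arrays, deviations from the group means put DHX58 between -0.53 (with STAT2) and 0.19 (with USP18). It stood at -0.41 with GBP2 and -0.33 with IFIT3. The 2 arrays farthest from the median of USP18 carried part of its relations, since without them its correlation with MX2 was 0.72 and with GBP2 -0.07. Correlations are descriptions over 12 arrays that share normalisation and may share animals, and no test was made of them.

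**Figure D3:**
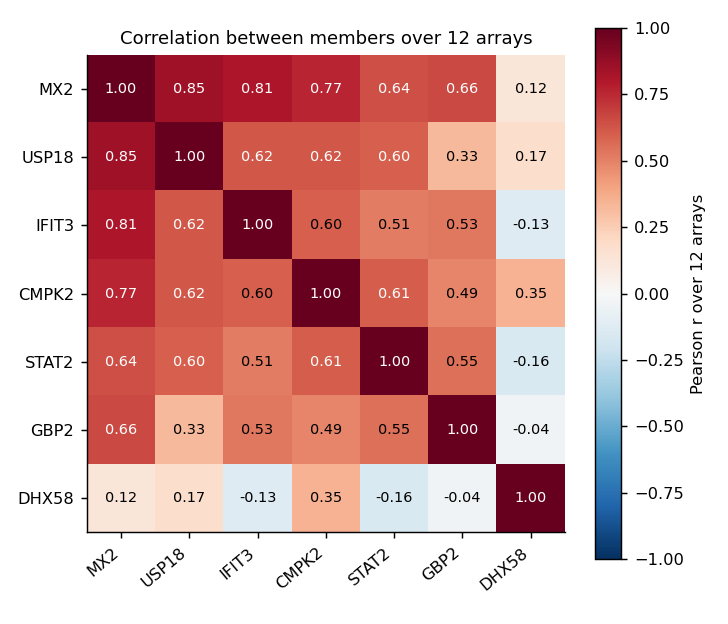
Pearson correlation between each pair of the 7 genes over the 12 arrays, with the value in each cell and colour running from -1 (blue) to 1 (red). The block of MX2, USP18, IFIT3, CMPK2, STAT2 and GBP2 is positive throughout, and the row of DHX58 lies between -0.16 and 0.35.

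The mean deviation of the 7 genes from their own 12-array means gave 1 level per array. This level was -0.27, -0.31 and 0.07 on FW EXP arrays 1, 2 and 3, against -0.15, 0.42 and 0.35 on FW CTL arrays. In the septum it was 0.004, -0.31 and -0.05 on S EXP arrays, against -0.23, 0.30 and 0.17 on S CTL arrays. The high arrays were thus control arrays 2 and 3 of both regions, and control array 1 of both regions lay among the paced arrays. On FW CTL array 2 and on S CTL array 2 all 7 genes were above their own mean, and on S EXP array 2 none was (0). Group means of this level were -0.17 ± 0.21 in FW EXP and 0.20 ± 0.31 in FW CTL, and -0.12 ± 0.17 in S EXP and 0.08 ± 0.27 in S CTL (SD, n = 3 each). In each region the ranges of the EXP and CTL arrays overlapped. Over all tested probe sets the deviations of FW CTL and S CTL arrays with the same number were correlated, with values of 0.32, 0.25 and 0.24 for numbers 1, 2 and 3, whereas the paced arrays gave 0.09, -0.17 and -0.18.

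**Figure D4:**
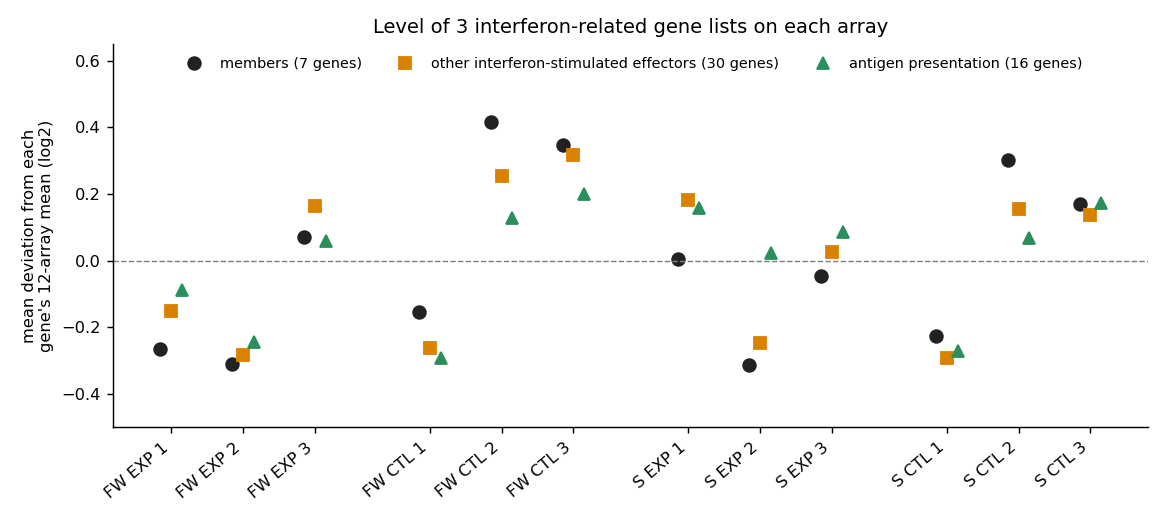
Mean deviation from each gene's own 12-array mean (log2) on each array, for the 7 genes (circles), 30 other interferon-stimulated effectors (squares) and 16 antigen presentation genes (triangles). Array 1 of FW CTL and of S CTL is below 0 in each list, and arrays 2 and 3 of both control groups are above 0. On S EXP array 2 the 7 genes stand at -0.31 and antigen presentation at 0.02.

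Genes that lie beside some of the 7 in the RefSeq gene order, and belong to the same family or response, were set against them array by array. MX1, the antiviral GTPase next to MX2, correlated with it at 0.93 (rho 0.91, 12 arrays), and its brighter probe set had 5.30, 5.41 and 6.02 on FW EXP arrays, against 5.26, 6.24 and 6.49 on FW CTL arrays. The other MX1 probe set had 4.09, 4.15 and 4.70 on FW EXP arrays, against 4.57, 5.24 and 5.55 on FW CTL arrays, so that array 1 was again the lowest of the controls. RSAD2, which encodes the antiviral enzyme viperin and neighbours CMPK2, correlated with CMPK2 at 0.82. It had 4.48, 4.70 and 5.68 on FW EXP arrays and 4.82, 5.68 and 6.23 on FW CTL arrays, and its pacing difference there was -0.62 (SE 0.46). GBP1, next to GBP2, correlated with it at 0.76. IFIT1 and IFIT2 flank IFIT3 and correlated with it at 0.76 and 0.52. For IFIT2 the relation was weak, with a rho of 0.21 and a Pearson correlation of 0.10 without the 2 arrays farthest from the median of IFIT3. IFIT2 stood the other way from IFIT3 in the septum, with 5.49, 4.99 and 5.39 on S EXP arrays against 4.75, 4.63 and 5.18 on S CTL arrays, a difference of 0.44 (SE 0.22, limma adjusted p = 0.992). IRF9, the partner of STAT2 in its complex, correlated with STAT2 at 0.78, and IFIH1, a sensor of the same family as DHX58, correlated with DHX58 at -0.15. Related genes can share probe sequence, and how far their probe sets share signal was not tested.

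Other parts of the pathway were counted from lists that were fixed for this purpose with earlier results of these data known. Of 62 other effectors listed 31 were matched by symbol or synonym and 30 passed the filter, OASL at a mean of 2.81 being left out. An effector annotated under another name was not counted. Of these 30 other interferon-stimulated effectors, 25 were below 0 in the free wall, where 49.3% of all probe sets were, with a median of -0.20. The chemokines CXCL11 and CXCL9, which draw T cells, differed by -0.36 (SE 0.14, limma adjusted p = 0.998) and -0.44 (SE 0.21), and the helicase HELZ2 by 0.39 (SE 0.26). Their signals were low, with means of 3.11 for CXCL11, 3.68 for CXCL9 and 3.33 for HELZ2. CXCL11 thus lay close to the filter at 3, and its highest signal was 3.71 on FW CTL array 1. In the septum 15 of the 30 were below 0 and 15 above, where 50.2% of all probe sets were below, with a median of -0.002, and CXCL9 stood at 0.33 (SE 0.21) and ZBP1, a sensor of Z-form nucleic acid, at -0.24 (SE 0.20). The free wall median moved to -0.06 without FW EXP array 2 and to -0.36 without FW CTL array 1. The difference of effects was above 0 for 24 of the 30, where 51.3% of all probe sets were, with a median of 0.22, with the smallest p for CXCL9 at 0.77 (SE 0.30, limma adjusted p = 0.999), and the median was 0.02 without S CTL array 1. With the regions averaged, 24 of 30 were below 0 (median -0.09), where 50.6% of all probe sets were, with the smallest p for EIF2AK2, the kinase PKR, at -0.36 (SE 0.23). In each of these comparisons 0 of the 30 were called by limma at an adjusted p under 0.05. Under an unadjusted p of 0.05 there was 1 in the free wall (4.56% of all probe sets), 2 in the difference between the effects (2.75%), 0 in the septum (4.65%) and 0 with the regions averaged (5.55%).

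**Figure D5:**
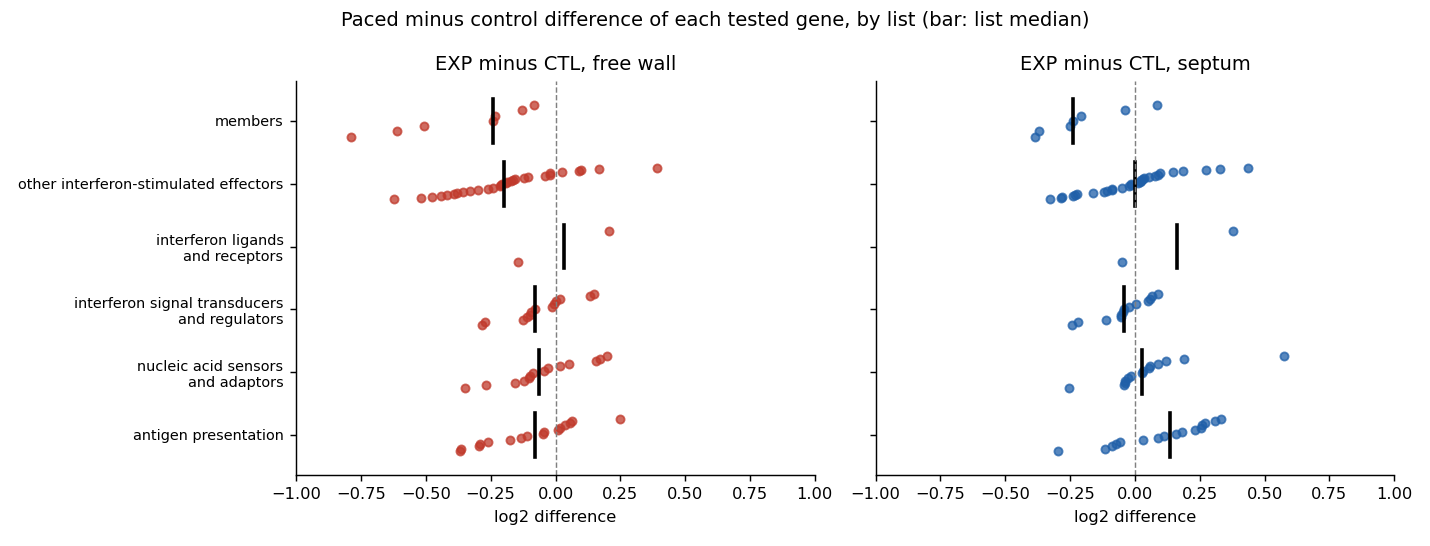
Log2 difference between paced and control arrays of each tested gene (points) and the list median (bar) in the free wall (left) and the septum (right) for the 7 genes and 5 lists of the interferon pathway. Medians of the 7 genes are -0.24 in both regions, and those of the 30 other effectors are -0.20 in the free wall and -0.002 in the septum.

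Of 13 ligands and receptors listed 6 were matched, with no type I receptor among them, and the others were not analysed here. The matched ligands had low signal. IFNB1, IFNE, IFNK and IFNG averaged 1.81, 1.75, 2.53 and 1.61 and were below the filter, and no array read above 2.77 for any of them. Of the matched receptors, IFNGR1, which binds interferon gamma, averaged 7.76 and differed by -0.14 (SE 0.20) in the free wall and 0.38 (SE 0.20) in the septum. IFNLR1, for the lambda interferons, averaged 3.56. Among 13 signal transducers and regulators 9 were below 0 in the free wall (median -0.08) and 8 in the septum (median -0.04). The interferon regulatory factors IRF2 and IRF9 differed by -0.28 (SE 0.14) and -0.27 (SE 0.22) in the free wall, and IRF7, which amplifies type I interferon, by -0.22 (SE 0.15) in the septum. Among 14 sensors and adaptors 9 were below 0 in the free wall (median -0.07) and 6 in the septum (median 0.03). TLR7, a receptor of single-stranded RNA, differed by -0.35 (SE 0.12, limma adjusted p = 0.998) in the free wall, and TRAF3, an adaptor of several sensors, by 0.57 (SE 0.21, limma adjusted p = 0.992) in the septum. Of 16 antigen presentation genes 10 were below 0 in the free wall (median -0.08) and 11 above 0 in the septum (median 0.14), with the class II gene SLA-DRB1 at 0.33 (SE 0.15) there. Of all probe sets 49.3% were below 0 in the free wall and 50.2% in the septum. No gene of these 4 lists was called in either region (0 by limma), where 0.00484% and 0.00968% of all probe sets were. At an unadjusted p under 0.05 (limma) there were only TLR7 in the free wall and TRAF3 in the septum. Of all probe sets 4.56% and 4.65% passed that limit.

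The genes whose signal was most like the mean level of the 7 were ranked among 10000 other named genes by Pearson correlation over the 12 arrays. The first 8 were SPRY2 (0.94), MX1 (0.91), IFI44 (0.91), SLA-3 (0.91), EIF2AK2 (0.91), DDX60 (0.89), ISG12(A) (0.89) and LOC733579 (0.88). MX1, IFI44, EIF2AK2 and DDX60 belong to the list of other effectors and SLA-3, a class I histocompatibility gene, to that of antigen presentation. ISG12(A) and LOC733579 matched no listed name under these symbols, so no list counts them. SPRY2 encodes an inhibitor of receptor tyrosine kinase signalling and is in none of the lists. Its signals were 5.53, 5.68 and 5.82 on FW EXP arrays, 5.59, 5.96 and 6.05 on FW CTL arrays, 5.69, 5.48 and 5.73 on S EXP arrays, and 5.53, 5.94 and 5.80 on S CTL arrays. Of the 30 other effectors 14 were among the 100 nearest genes. The correlation was above 0 for 26 of them, where 5167 of all 10000 genes were above 0. Their median correlation was 0.66, against 0.01 over all 10000 genes. Taken over deviations from the group means, the median was 0.745 for these effectors, 0.783 for antigen presentation genes and 0.02 over all genes. Vascular endothelial markers (0.726) and fibroblast markers (0.68) came close, so a likeness of this size was not particular to interferon genes. By deviations from the group means the first 8 were ITM2A (0.99), INPP5D, EPAS1, NREP, IFIH1, LUM, MX1 and FAM213A (0.95). Of these 8, IFIH1 and MX1 are in the interferon lists, and LUM, a proteoglycan of fibroblasts, is in the fibroblast list.

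Markers of cell types were set beside these levels, since in bulk tissue fewer cells of a type and less RNA per cell cannot be told apart. Macrophage and monocyte markers were below 0 in the free wall for 9 of 11 genes, with a median of -0.32, and their mean deviation lay between -0.28 and -0.01 in FW EXP and between 0.09 and 0.23 in FW CTL. In the septum 6 of 11 were below 0 (median -0.03), with ranges of -0.01 to 0.05 in S EXP and -0.18 to 0.21 in S CTL. Over the 12 arrays their median correlation with the level of the 7 genes was 0.10, and by deviations from the group means -0.34. The lysozyme gene LYZ was below the filter at 2.09. Vascular endothelial markers had a median correlation of 0.45 and fibroblast markers of 0.24, and by deviations from the group means these were 0.73 and 0.68. Smooth muscle and pericyte markers had 0.18 over the 12 arrays and 0.57 by deviations, and cardiomyocyte markers 0.03 and 0.15. Both control arrays with the number 1 were low in fibroblast markers, at -0.60 in the free wall and -0.57 in the septum. S CTL array 3 stood at -0.35, and the other arrays lay between 0.06 and 0.24 in FW EXP, at 0.32 and 0.13 in FW CTL, between -0.08 and 0.20 in S EXP and at 0.29 in S CTL. Among T and NK cell genes GZMA, PRF1, CD3G, KLRB1 and KLRK1 were below the filter, and 2 of the 11 tested were below 0 in the free wall and 8 in the septum. Of 5 neutrophil genes S100A8, S100A9 and S100A12 were below the filter, and CXCR2 (mean 3.51) and MPO (3.38) passed it, both below 0 in the free wall and 1 of 2 in the septum. The part of cell makeup in the levels of the 7 genes was not tested. Without both control arrays with the number 1, an alternative chosen after seeing the data, the median of the 7 was -0.42 in the free wall and -0.41 in the septum, USP18 in the septum stood at -0.16, and 0 of 7 genes were called in either region by limma.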

How the data were processed

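Biotin-labelled total RNA was measured on Affymetrix arrays, per the labels. The authors deposited log2 values, for which the submitters' processing notes name RMA and Affymetrix Expression Console 1.4. The array's build is not given in the sources used here. The table held 27558 probe sets on 12 arrays, of which 13323 had 1 gene symbol, 357 several and 13878 none in the platform annotation. Precision is limited by the number of arrays.

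After removal of the dimmest 25% (12-array mean of 3 or less), 20668 probe sets were tested by limma 3.58.1 (R 4.3.3). The model held the 4 group means on all 12 arrays (8 residual and 3.68 prior degrees of freedom), two-sided, adjusted by Benjamini-Hochberg over all probe sets tested, and called at 0.05. SE denotes the standard error of a log2 difference. For the averaged comparison, values of the 2 regions were averaged by treatment and number first (4 residual and 3.82 prior degrees of freedom). Same-numbered arrays of the 2 regions deviated together in control pigs only. The number was used as a block in an alternative. For pacing within a region this block pairs paced with control arrays of the same number, which the labels do not relate. Deviations of such pairs over all tested probe sets correlated at -0.20, -0.14 and 0.04 in the free wall. In the septum they correlated at 0.01, 0.09 and 0.22.

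The members and the lists were chosen with earlier results of these data known, so no list was tested. Of 269 listed gene names 171 were matched by symbol or RefSeq synonym, and the brightest probe set stood for a gene. Named genes were all 7 members, at most 3 genes with the smallest p per pathway list and pacing comparison, the 8 nearest in pattern and the brightest markers. Genes beside the members in the RefSeq order, IRF9, IFIH1, IFIT2 and the undetected markers were named after their values were seen. A simulation of 20668 probe sets served to check the code. Of 100 changed 2-fold, 72 were recovered in the free wall, 69 in the septum and 49 for the difference of effects. The same runs held 100 changed 4-fold, of which 99, 95 and 94 were recovered in the same order. False calls numbered 14, 5 and 4 in those runs. These counts do not give the recovery of the 7 genes, whose pacing differences within each region were all below 2-fold. The spread of MX2, IFIT3 and USP18 also exceeded that of most probe sets of like mean. Figures were drawn with matplotlib 3.10.9.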

Additional observations from a re-analysis of the deposited data

How the results depend on the processing

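None of the 7 genes passed an adjusted p of 0.05 (limma) in any of 821 alternative values of their differences over 33 settings (0 calls, lowest adjusted p 0.479), and 27 of these values changed sign. Free wall calls over all probe sets were 2 with array weights, 0 with only the groups compared, 0 with the replicate block and 0 without the control arrays numbered 1. Septal calls were 1 with only the groups compared, 1 with the replicate block and 4 without those control arrays. With the regions not averaged 4 probe sets were called. STAT2 in the septum stood at 0.000481 with array weights, and USP18 at -0.157 without those control arrays. Spearman's rho kept 4 of the 8 nearest genes. The replicate block changed no call among the 7 genes. Between regions, same-numbered arrays deviated together for control pigs only, at 0.245 to 0.318. The septal paced and control arrays numbered 3 reached 0.217, and no test was made of these correlations. For pacing within a region the block pairs paced with control arrays that the labels do not relate.

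Leaving out 1 array at a time gave 0 to 1 calls over all probe sets in the free wall, 1 to 4 in the septum, 0 to 1 with regions averaged and 0 to 7 for septum against free wall in paced pigs, where 2 to 5 of the 7 genes were below 0. DHX58 in the free wall lay between -0.268 and 0.0767. In the septum USP18 lay between -0.157 and 0.293, MX2 between -0.59 and 0.0183 and STAT2 between -0.132 and 0.0183. The difference of effects ran from -0.00833 to 0.485 for IFIT3 and from -0.298 to 0.0517 for CMPK2. For septum against free wall in paced pigs IFIT3 lay between -0.435 and 0.055, MX2 between -0.143 and 0.325, CMPK2 between -0.112 and 0.218 and DHX58 between -0.24 and 0.105. In control pigs MX2 lay between -0.723 and 0.0333, CMPK2 between -0.0117 and 0.338 and GBP2 between -0.162 and 0.00333. The cause was not tested. With 3 arrays a group, the interval of each difference between groups among the 7 genes included 0, except that of USP18 in the free wall.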
